A study of Rattus norvegicus with 24 samples.

Results

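The response of rat oligodendrocytes (OLs) to the antiretroviral drug dolutegravir (DTG) was read from 8 RNA-sequencing libraries of the 24 in the study. They are the 4 libraries of OLs treated with 8 µM DTG and the 4 libraries of OLs treated with the vehicle DMSO at 0.04%, chosen by their labels alone. Both groups began as primary oligodendrocyte precursor cells (OPCs), which per the study's methods were prepared from the cerebral cortex of Sprague Dawley pups at postnatal days 0 to 4 by shaking them off mixed glial cultures. The OPCs were exposed for 24 hours in proliferation medium with fibroblast growth factor, platelet-derived growth factor and neurotrophin 3, and the same exposure then continued for 72 hours in a differentiation medium with thyroxine and insulin. Each DTG library has a DMSO partner from the same litter, which shares its culture date and letter in the library name. No transgene is named, the cells were enriched by shaking rather than sorted, and RNA was isolated from whole cultures. The other libraries used here for comparison are DTG-treated and DMSO-treated OPCs, collected after the 24 hours of proliferation, and untreated OPCs and OLs.

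DTG blocks the integrase of HIV and is a frontline drug, including in pregnancy. OLs make myelin, the lipid-rich sheath around axons, and build it in a sequence in which a dividing precursor leaves the cell cycle, switches on membrane and lipid synthesis, and then expresses structural myelin proteins. The integrated stress response (ISR) joins several kinds of stress, among them unfolded protein in the endoplasmic reticulum (ER), lack of amino acids, lack of heme and mitochondrial dysfunction, to phosphorylation of the initiation factor eIF2α. General translation then falls, while the mRNA of the transcription factor ATF4 is translated more, and ATF4 with its partners of the C/EBP family turns on genes of amino acid uptake and synthesis, redox balance and feedback control.

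Values are given in CPM, a gene's counts per 1000000 gene counts of a library after TMM normalisation, always in the order of litters 1 to 4. Gene counts per library ranged from 13863395 to 17601865. ERCC transcripts, synthetic RNA added to the samples, took 2.19% to 7.19% of all counts in DMSO-treated OLs and 1.89% to 3.72% in DTG-treated OLs. Mbp, the gene of myelin basic protein and a defining transcript of OLs, was among the most counted genes in both groups. Of the 28 precursor markers looked for, 7 could be identified, and they summed to 370.5 to 614 CPM with DMSO and 265 to 525 CPM with DTG. Most defining markers of other cell types could not be looked up, because only 2107 of the 32883 gene identifiers could be paired with a symbol. Of the 13 neuronal markers, 7 were identified and summed to 79.1 to 139 CPM with DMSO and 85.5 to 135 CPM with DTG, and Cd68, the 1 identified marker of microglia and macrophages, was at 0.122 to 0.338 CPM and 0.320 to 0.505 CPM. Sox9, the 1 identified astrocyte marker of 12, was at 72.3 to 87.3 CPM and 86.8 to 113 CPM. Dnah11, a dynein of motile cilia and the 1 identified ependymal marker of 5, was at 0 to 0.369 CPM and 0.649 to 1.28 CPM (log2 fold change 2.25, adjusted p = 0.00572 by edgeR, and 0.0587 without the litter as a block), and the part of these cells in the results was not tested. Acta2 and Rgs5, the 2 identified of 9 fibroblast and mural markers, summed to 0.673 to 1.25 CPM and 0.433 to 0.831 CPM, and none of 7 endothelial markers was identified.

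The promoters of stress genes are shown first because ATF4 and C/EBP proteins are known to bind composite sites of the form TGATGNAA. Sequences are those of RefSeq on build GRCr8, from 250 bases before the annotated start of a gene to 50 after it, and the letters were searched on both strands. In the 4 genes named next, all higher with DTG, the match is in capitals and only bases before the start are printed, 5′ to 3′ on the strand of the gene.
Trib3, chr3:161275534-161275586, minus strand, match starting 21 bases before the gene: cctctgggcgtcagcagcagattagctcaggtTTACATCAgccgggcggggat
Chac1, chr3:126795932-126796003, plus strand, 167 bases before: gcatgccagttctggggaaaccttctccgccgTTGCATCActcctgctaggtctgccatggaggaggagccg
Slc7a1, chr12:11664426-11664487, plus strand, 30 bases before: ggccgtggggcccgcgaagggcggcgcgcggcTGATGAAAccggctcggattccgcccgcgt
Pck2, chr15:32997603-32997653, plus strand, 239 bases before: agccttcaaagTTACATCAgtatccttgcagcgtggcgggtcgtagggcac
The letters CACGTG, an E-box that several helix-loop-helix factors bind, are marked in the same way in 1 gene that was higher and 1 that was lower with DTG.
Atf4, chr7:113684567-113684636, plus strand, 82 bases before: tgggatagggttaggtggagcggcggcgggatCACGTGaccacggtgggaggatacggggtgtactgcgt
Arrdc4, chr1:131793565-131793634, minus strand, 177 bases before: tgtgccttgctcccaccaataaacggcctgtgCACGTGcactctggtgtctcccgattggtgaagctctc
A promoter was found for 83 of the 133 differentially expressed genes that have a symbol. TGATGNAA was present in 4 of 47 genes that were higher with DTG (8.51%), in 1 of 36 that were lower (2.78%, the histone gene Hist2h3c2) and in 3.98% of all 33469 promoters. CACGTG was present in 6 of 47 (12.8%) and 5 of 36 (13.9%), against 6.42% of all promoters. A gene was counted if any of its promoters matched, whereas the share of all promoters is counted per promoter. The shares are therefore not in the same unit. A match is a description of the letters and was not tested as a binding site.

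Of 12710 genes tested with the litter as a block, 363 passed as higher (2.86%) and 283 as lower (2.23%) with DTG, together 5.08%. Passing means an adjusted p-value below 0.05 from the quasi-likelihood test of edgeR, after Benjamini-Hochberg adjustment over all genes. Genes that in addition changed by more than 1 on the log2 scale, a fold of more than 2, were called differentially expressed, and all changes given as a rise or a fall by a number are on the log2 scale. There were 173 such genes (1.36% of those tested), 101 higher (0.795%) and 72 lower (0.566%) with DTG. The change had 1 direction in all 4 litters in 98 of the 101 and 70 of the 72, where 11.9% and 14.1% of all genes were higher or lower in 4 of 4 litters. All 4 DTG libraries lay above all 4 DMSO libraries in 72 of the 101, against 3.89% of all genes, and below them in 44 of the 72, against 4.38%. Without the litter block, 112 genes passed (0.881%) and 74 were called (0.582%), 47 higher (0.370%) and 27 lower (0.212%), and 73 of them were also called with it. Scaled to ERCC counts in place of TMM, the median over all genes moved from 0.01 to 0.53 on the log2 scale, and 71 genes were called, 67 higher and 4 lower. All 72 genes called lower under TMM remained below 0 in that scaling, 4 of them passing, and 60 of the 101 called higher still passed. Per the study's methods, the ERCC mix went into total RNA that was already normalised, so this scaling does not measure RNA per cell or cell number. Fewer cells of a type and less RNA per cell cannot be told apart in these bulk libraries. DESeq2's Wald test with the block called 141 genes, of which 139 were among the 173. The plot of fold change against expression shows that calls came from the whole range of expression, from genes near 1 CPM to the most abundant transcripts.

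**Figure D1:**
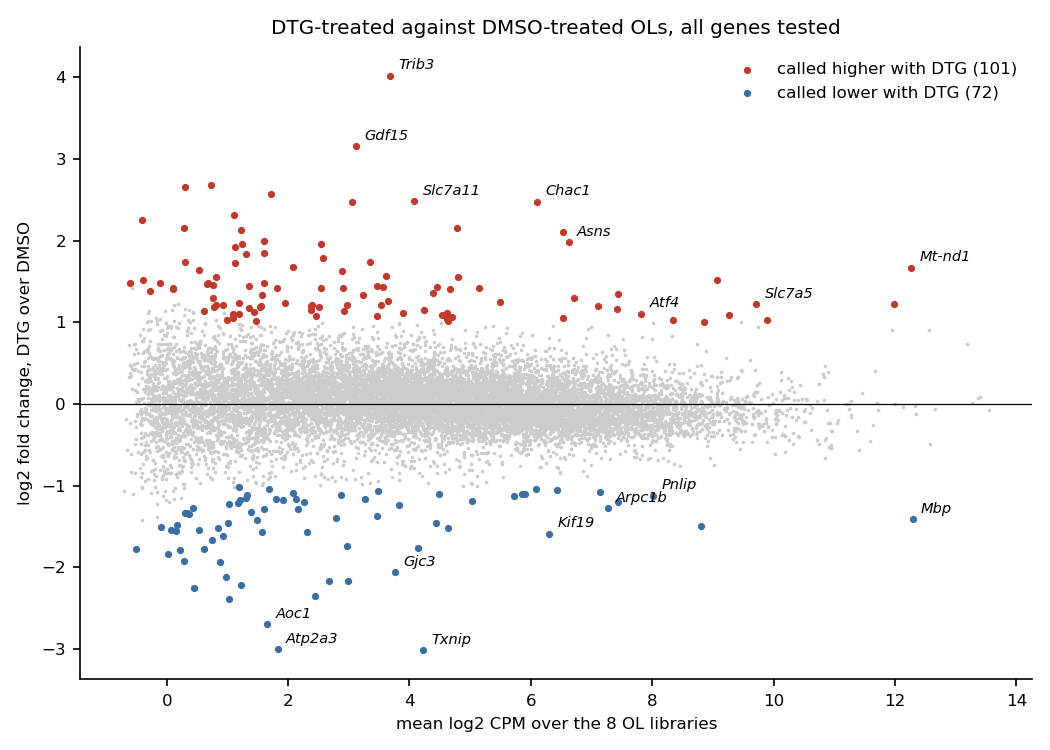
Fold change with DTG of every gene tested in OLs, on the log2 scale (y axis), against its mean log2 CPM over the 8 libraries (x axis). Each point is 1 gene, the 101 called higher in red and the 72 called lower in blue, and Trib3 and Txnip stand at the ends with log2 fold changes of 4.02 and -3.01.

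A symbol was available for 133 of the 173 called genes. For 123 of them it came from the study's own list of genes changed by DTG in these libraries, and for 10 from its list of genes that differ between OLs and OPCs. Counts of changed genes among named members of a pathway are therefore not independent evidence of the direction of that pathway, and only the cell cycle list had more than 80% of its members named. The other lists are described by their named members. Each count of members that passed is to be read beside the shares of all genes, 2.86% higher and 2.23% lower.

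Named regulators of the ISR were higher with DTG. Among 8 regulators and transcription factors named of 17 listed, 7 rose and 1 did not pass, where 2.86% of all genes passed as higher. The median log2 fold change was 1.23 beside 0.01 over all genes, and 5 passed without the block. The symbols of all that rose, except Cebpg, came from the study's list of genes changed by DTG. The count and median were therefore partly set by the naming. Trib3, a pseudokinase that ATF4 induces and that feeds back on it, showed the largest rise of all named genes. It was counted at 1.05, 0.954, 1.67 and 1.98 CPM in DMSO-treated OLs and at 44.2, 15.5, 22.3 and 13.7 CPM in DTG-treated OLs, so that the lowest DTG library was several times above the highest DMSO library. The log2 fold change of Trib3 (chr3:147813470-147819570, Rnor_6.0) was 4.02 (standard error, SE, 0.29), a fold of 16.2, with an adjusted p = 1.76e-10.

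Atf4, the central transcription factor of the response, was counted at 129.6, 125, 159.7 and 153 CPM with DMSO and 303, 235, 309 and 385 CPM with DTG. The groups did not overlap, and its log2 fold change was 1.11 (SE 0.14, adjusted p = 3.56e-06). Atf3, a stress-induced factor downstream of ATF4, was at 1.97, 1.91, 2.72 and 2.68 CPM with DMSO and at 6.49, 10.9, 10.4 and 8.56 CPM with DTG, also without overlap, a rise of 1.95 (SE 0.25, adjusted p = 5.32e-06). Atf5, which is itself translated when eIF2α is phosphorylated and is tied to mitochondrial stress, was at 151, 241, 436 and 319 CPM and 780.4, 868, 947 and 539 CPM. Its rise was 1.52 (SE 0.19, adjusted p = 2.4e-06), smallest in litter 4. Creb3l1, an ER-anchored factor released by proteolysis, rose by 1.25 (SE 0.17, adjusted p = 1.01e-05), ranging over 23.2 to 32.3 CPM with DMSO and 47.3 to 70.8 CPM with DTG.

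The C/EBP partners were less even across litters. Cebpb was counted at 4.13, 3.69, 4.32 and 5.74 CPM with DMSO and 11.2, 8.67, 19.3 and 4.99 CPM with DTG, higher in litters 1 to 3 and lower in litter 4. Its log2 fold change of 1.21 (SE 0.27) had an adjusted p = 0.00551 with the block and 0.118 without it, and without litter 3 the value was 0.84 with an adjusted p = 0.129. Cebpg, which pairs with ATF4 on target genes, rose by 0.72 (SE 0.17, adjusted p = 0.00923), with an adjusted p = 0.0954 without the block and 0.0512 without litter 2.

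All 8 effectors downstream of ATF4 named of 24 listed rose, with a median log2 fold change of 1.72, and 7 passed without the block. All these symbols came from the study's list of genes changed by DTG, so they say nothing of the unnamed members. Gdf15, a secreted stress hormone of the TGF-β family, was at 1.11, 1.78, 2.79 and 1.28 CPM with DMSO and 14.01, 12.6, 23.98 and 11.2 CPM with DTG. Stc2, a secreted glycoprotein, was at 3.20, 1.27, 3.07 and 2.36 CPM and 20.2, 6.996, 16.8 and 11.3 CPM. Both were separated between the groups, by log2 fold changes of 3.15 (SE 0.25, adjusted p = 1.06e-09) and 2.47 (SE 0.24, adjusted p = 3.28e-08). Chac1, which degrades glutathione, was counted at 10.2, 24.8, 31.8 and 19.7 CPM with DMSO and 116, 107, 146 and 94.3 CPM with DTG. No DMSO library came near the DTG range, and the log2 fold change was 2.48 (SE 0.18, adjusted p = 1.82e-10).

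Brakes on protein synthesis and on the mTORC1 kinase, which drives translation and growth, were among the genes that rose. Eif4ebp1, whose product binds the cap-binding factor eIF4E, was at 17.7, 36.5, 54.8 and 34.2 CPM with DMSO and 168, 156, 161 and 107 CPM with DTG. Its rise of 2.10 (SE 0.19, adjusted p = 1.6e-08) was largest in litter 1 and smallest in litter 3. Sesn2, a leucine sensor that restrains mTORC1, rose, ranging over 67.2 to 117 CPM with DMSO and 200.1 to 289 CPM with DTG (log2 fold change 1.34, SE 0.16, adjusted p = 2.04e-06). Ddit4l2, of the REDD family of mTORC1 inhibitors, rose by 1.44 and Prr5l, a protein that binds mTORC2, by 1.42 (adjusted p = 0.00012 and 0.00115; 0.0558 and 0.0607 without the block). Rcan2, an inhibitor of calcineurin, rose by 1.15, and Cdkn1a, the cyclin-dependent kinase inhibitor p21, rose by 1.02, ranging over 138 to 261 CPM with DMSO and 332 to 524 CPM with DTG (adjusted p = 0.000121 and 8.47e-05).

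Amino acid transporters formed the next group, with 24 listed. All 7 named members that were tested rose, with a median log2 fold change of 1.29, and 5 passed without the block. All but Slc38a1 had their symbols from the study's list of genes changed by DTG. Slc7a11, which imports cystine in exchange for glutamate, was counted at 3.88, 4.33, 6.34 and 5.81 CPM with DMSO and 30.8, 19.8, 30.7 and 32.4 CPM with DTG, a rise of 2.48 (SE 0.20, adjusted p = 1.06e-09). The library of litter 2 was lower than the other 3 DTG libraries and still above every DMSO library. Slc7a3, a carrier of cationic amino acids, was at 14.5, 5.54, 10.4 and 6.70 CPM and 104, 26.3, 26.8 and 25.2 CPM. The DTG library of litter 1 stood far above the other 3, which lay close together, and the log2 fold change was 2.15 (SE 0.20, adjusted p = 2.98e-08).

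Slc7a5, the large neutral amino acid carrier LAT1, was the most counted of these genes, at 317, 534, 629.6 and 575 CPM with DMSO and 1305, 1157, 1238 and 978 CPM with DTG. It rose by 1.22 (SE 0.17, adjusted p = 1.67e-05). Slc7a1, the cationic carrier whose promoter is printed above, rose by 1.29, ranging over 51.4 to 77.3 CPM with DMSO and 115 to 176 CPM with DTG, and Slc7a7 rose by 1.85, ranging over 0.678 to 1.74 CPM with DMSO and 2.94 to 6.68 CPM with DTG (adjusted p = 3.5e-06 and 0.00037). The glutamine carriers Slc1a5 and Slc38a1 rose by 1.12 and 0.79 (adjusted p = 0.00131 and 0.00348), and without the block their adjusted p-values were 0.0731 and 0.192.

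Of 24 listed enzymes of asparagine, serine and one-carbon metabolism, 6 were named. Of these, 5 rose and 1 did not pass the test, while 3 passed without the block. The symbols of the 5 came from the study's list of genes changed by DTG. Asns, which makes asparagine, was at 22.4, 43.3, 54.3 and 41.7 CPM with DMSO and 189, 131, 149 and 157 CPM with DTG. Every DTG library stood well above every DMSO library, and the log2 fold change was 1.99 (SE 0.19, adjusted p = 2.38e-08). The mitochondrial folate enzymes Aldh1l2 and Mthfd2 rose by 1.63 and 1.55 (adjusted p = 0.000297 and 9.43e-07). Mthfd2 was at 11.5, 10.6, 17.4 and 16.7 CPM with DMSO and 50.3, 29.96, 36.6 and 47.6 CPM with DTG. Aldh1l2 was at 3.70, 4.45, 2.65 and 2.68 CPM and 23.3, 6.01, 5.70 and 9.30 CPM, with the largest change in litter 1, and its adjusted p was 0.093 without the block. Pck2, the mitochondrial phosphoenolpyruvate carboxykinase, rose by 1.44 (adjusted p = 4e-05). Cth, which makes cysteine from cystathionine, rose by 1.21 (adjusted p = 0.00467), with an adjusted p = 0.123 without the block and 0.0603 without litter 1. None of the 3 named genes of folate uptake and use passed the test.

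**Figure D2:**
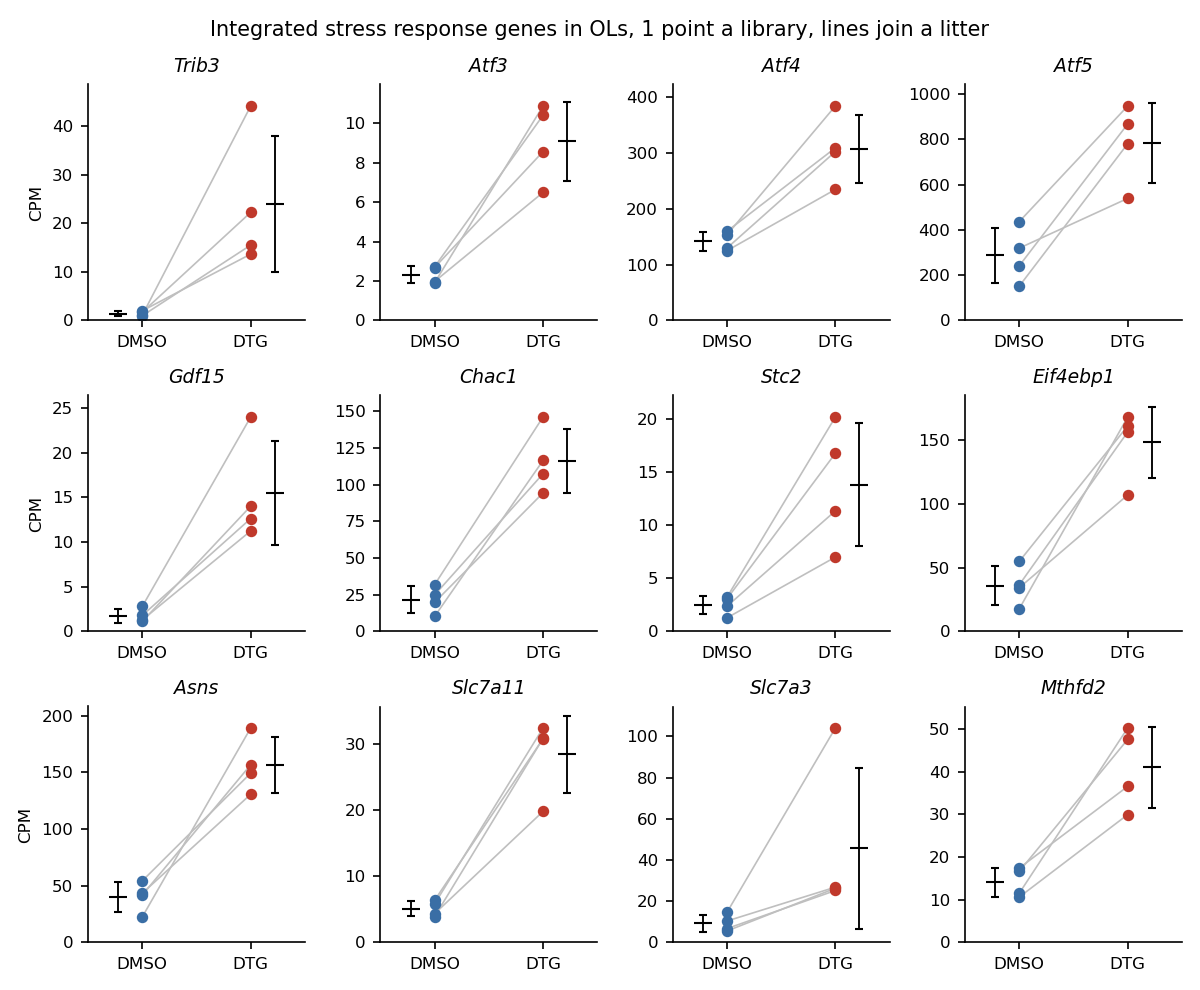
CPM (y axes, from 0) of 12 genes of the ISR, amino acid transport and amino acid synthesis in the 4 DMSO-treated (blue) and 4 DTG-treated (red) OL libraries, with grey lines joining libraries of a litter and black bars giving mean ± SD. All 12 genes rise in every litter, and Slc7a3 has 1 DTG library at 104 CPM.

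Genes of the antioxidant and ER branches gave a mixed picture. Hmox1, the heme oxygenase that the factor NRF2 induces, was at 88.6, 66.7, 96.98 and 169 CPM with DMSO and 348, 135, 185 and 282 CPM with DTG, higher with DTG in each litter although the groups overlapped. Its rise was 1.16 (SE 0.16, adjusted p = 2.06e-05), and without the block the adjusted p was 0.103. All 4 NRF2 targets named of 20 listed passed as higher, where 2.86% of all genes did, and Slc7a11 is also an ISR target. The symbols of Hmox1 and Slc7a11 came from the study's list of genes changed by DTG. Without the block, Slc7a11 was the 1 of the 4 that passed, and Gclm and Txn1 had adjusted p-values of 0.256 and 0.388. Of 4 ER chaperones and degradation factors named of 27 listed, by contrast, 2 were lower and 2 did not pass. Of all genes, 2.23% passed as lower, and the symbol of Sdf2l1 came from the study's list of genes changed by DTG. Sdf2l1, an ER-resident cofactor of chaperones, was at 77.4, 65.4, 67.6 and 78.3 CPM with DMSO and 43.96, 37.2, 27.2 and 25.8 CPM with DTG, so the groups did not overlap (log2 fold change -1.13, SE 0.16, adjusted p = 1.67e-05). Hsp90b1, the ER chaperone GRP94, was lower in litters 1 to 3 and had a log2 fold change of -0.50 with an adjusted p = 0.0375, which was 0.15 without the block and 0.156, 0.243 and 0.456 without litters 1, 2 and 3. The usual lead chaperone genes of the ER could not be looked up by symbol and were not analysed here.

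Named myelin genes were lower with DTG. All 5 myelin genes named of 30 listed fell, with a median log2 fold change of -1.41. All 7 markers of committed OLs named of 18 listed also fell, with a median of -1.10. Without the block, 2 of the 5 and 2 of the 7 passed. All these symbols came from the study's list of genes changed by DTG, so they say nothing of the unnamed members. Mbp was counted at 6624, 9926, 8825 and 3739 CPM in DMSO-treated OLs and at 2096, 3655, 3813 and 1482 CPM in DTG-treated OLs. Levels varied more than 2-fold between litters in both groups, and the highest DTG library lay just above the lowest DMSO library, but each DTG library was well below its own partner. The log2 fold change was -1.41 (SE 0.16, adjusted p = 1.09e-06), and without the block the adjusted p was 0.0865. None of the 5 myelin genes passed as lower when libraries were scaled to ERCC counts, where all 5 stayed below 0.

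Mog, a myelin surface protein that appears late, was at 41.2, 45.2, 41.6 and 29.9 CPM with DMSO and 23.2, 18.5, 18.8 and 17.8 CPM with DTG. Here the groups did not overlap, and the log2 fold change of -0.9997 (SE 0.16, adjusted p = 0.00014) passed the test but lay just short of the limit of fold for a call. Gjc3, the gap junction protein connexin 29 of myelinating cells, was at 19.5, 32.1, 25.8 and 9.19 CPM and 3.21, 7.22, 6.96 and 3.15 CPM, the largest fall among the named myelin genes (log2 fold change -2.05, SE 0.21, adjusted p = 1.09e-07). Tppp, which organises microtubules in OLs, was at 60.3, 53.95, 38.3 and 22.7 CPM and 18.1, 28.1, 22.2 and 17.1 CPM, a log2 fold change of -0.98 with an adjusted p = 0.000687 (0.0984 without the block). Pmp2, a fatty acid binding protein of myelin, was low, at 1.28 to 3.69 CPM with DMSO, and its log2 fold change of -1.51 (adjusted p = 0.00622) had an adjusted p = 0.135 without the block and 0.125 without litter 3.

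Among markers of committed OLs, S1pr5, a receptor for sphingosine-1-phosphate, was at 32.04, 39.3, 34.97 and 19.9 CPM with DMSO and 11.2, 14.1, 14.5 and 6.67 CPM with DTG, without overlap (log2 fold change -1.45, SE 0.17, adjusted p = 1.48e-06). Enpp6, a choline phosphodiesterase that marks newly formed OLs, was at 81.5, 106, 93.5 and 42.1 CPM and 30.2, 53.3, 48.7 and 20.5 CPM. Adamts4, a protease of mature OLs, was at 94.1, 184, 129.6 and 61.7 CPM and 46.5, 77.2, 66.98 and 31.8 CPM. For both, litter 4 was lowest in each group and every litter was lower with DTG, with log2 fold changes of -1.10 and -1.05 (adjusted p = 1.02e-05 and 1.01e-05). Without the block their adjusted p-values were 0.123 and 0.136, and those of Kndc1 (-1.10), Prickle1 (-0.999) and Pgf (-1.20) were 0.142, 0.1 and 0.0587. Pgf also lost its call without litter 2, with an adjusted p = 0.0786. The phospholipase Plch2 had a log2 fold change of -1.18 and passed also without the block (adjusted p = 0.031).

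Precursor markers did not pass the test in either direction, in 7 of 7 named genes, with a median log2 fold change of -0.03. Pdgfra, the receptor that keeps OPCs dividing, was at 254, 149.6, 111 and 134 CPM with DMSO and 197, 84.9, 96.7 and 163 CPM with DTG, with overlapping groups (log2 fold change -0.27, SE 0.15, adjusted p = 0.362). Its value was -0.44 with an adjusted p = 0.017 without litter 4, in which it was higher with DTG, and 0.19 when libraries were scaled to ERCC counts. Cspg4, the NG2 proteoglycan of OPCs, was at 49.05, 32.1, 35.5 and 44.9 CPM and 76.4, 29.05, 44.8 and 39.9 CPM (log2 fold change 0.18, SE 0.16, adjusted p = 0.598), higher in litters 1 and 3 and lower in litters 2 and 4.

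The normal course of differentiation was read from the 3 litters of untreated OPCs and OLs whose files list the same genes. These are separate libraries from litters 1, 2 and 4, which also gave DMSO and DTG libraries, so they are not independent litters. There, 18.6% of 13110 genes passed as higher and 18.6% as lower in OLs. Of the 68 genes called lower with DTG that were tested there, 41 were higher in untreated OLs than in untreated OPCs (60.3%) and 5 were lower (7.35%), against 19.3% and 17.3% of all 12551 genes tested in both. The median log2 difference of these 68 genes between untreated OLs and OPCs was 2.18, beside 0.01 over all genes. Of the 94 genes called higher with DTG, 16 were higher in untreated OLs (17.0%) and 28 were lower (29.8%), with a median of -0.25. Genes called lower with DTG took 1.69% of the 2426 genes that rose in differentiation and 0.23% of the 2170 that fell. Mbp, Enpp6 and Adamts4 were higher in untreated OLs by 4.72, 5.14 and 4.72 on the log2 scale, several times the size of their fall with DTG. Trib3, Asns and Atf4 differed by 0.05, -0.14 and 0.20 between untreated stages (adjusted p = 0.954, 0.653 and 0.568). Mthfd2 and Slc1a5, which were higher with DTG, were lower in untreated OLs than in OPCs by log2 differences of -1.45 and -2.82, while Atf5 was higher by 1.49.

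**Figure D3:**
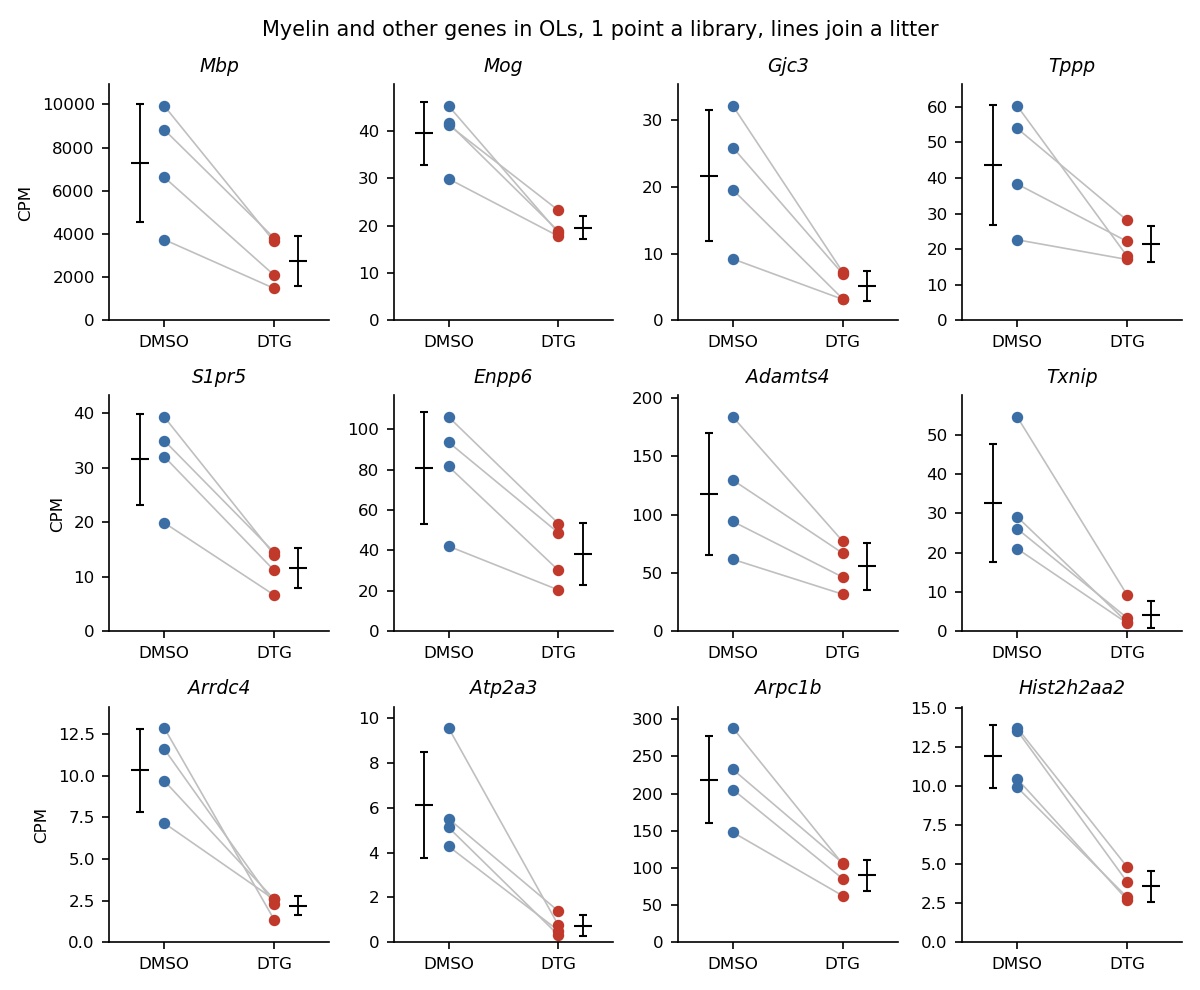
CPM (y axes, from 0) of 12 genes that were lower with DTG, among them myelin and OL markers, in the 4 DMSO-treated (blue) and 4 DTG-treated (red) OL libraries, with grey lines joining libraries of a litter and black bars giving mean ± SD. Every line falls, although for Mbp, Tppp, Enpp6 and Adamts4 the groups overlap.

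Of 4 genes of the glucose-sensing factors MondoA and ChREBP named of 8 listed, 2 were lower and 2 did not pass. The symbols of the 2 that were lower came from the study's list of genes changed by DTG. Of all genes, 2.23% passed as lower. Txnip, an inhibitor of glucose uptake and of thioredoxin that these factors induce, showed the largest fall of all named genes. It was counted at 29.1, 54.5, 26.1 and 20.99 CPM with DMSO and 2.31, 9.28, 3.45 and 2.10 CPM with DTG, and every DTG library was below every DMSO library. The log2 fold change was -3.01 (SE 0.21, adjusted p = 1.76e-10). Its relative Arrdc4, an arrestin under the same control, was at 11.6, 12.9, 9.68 and 7.15 CPM and 2.31, 1.37, 2.58 and 2.57 CPM (log2 fold change -2.16, SE 0.26, adjusted p = 2.3e-06). Pfkl, the liver-type phosphofructokinase and the 1 named gene of 27 of glycolysis and glucose uptake, was at 162, 333, 279.6 and 188 CPM with DMSO and 96.1, 143, 106 and 69.9 CPM with DTG (log2 fold change -1.20, adjusted p = 2.04e-06). Of 3 named genes of fatty acid and myelin lipid synthesis, 1 was higher, 1 was lower and 1 did not pass, with a median log2 fold change of 0.04. Gpd1, which makes glycerol phosphate for lipids, ranged over 30.2 to 53.5 CPM with DMSO and 17.03 to 22.4 CPM with DTG (log2 fold change -1.19, adjusted p = 1.25e-05). Acacb, an acetyl-CoA carboxylase, had a log2 fold change of 1.15 (adjusted p = 0.00495, and 0.0916 without the block), and Cers4, a ceramide synthase, one of 0.04 (adjusted p = 0.945).

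Ion pumps and channels changed in both directions. Atp2a3, the calcium pump SERCA3 of the ER, was at 5.11, 9.54, 5.50 and 4.28 CPM with DMSO and 0.321, 0.76, 1.39 and 0.525 CPM with DTG, a fall close to that of Txnip on the log2 scale (-2.997, SE 0.33, adjusted p = 6.38e-07). Of 9 named genes of calcium pumps and stores, 1 was higher, 1 was lower and 7 did not pass. Of 19 named potassium, sodium and calcium channel genes, 18 were tested, of which 5 were higher, 1 was lower and 12 did not pass, and 2 passed without the block. Of all genes, 2.86% passed as higher and 2.23% as lower. The symbols of Cacna1i, Kcna2, Kcnk12 and Kcne4 came from the study's list of genes changed by DTG. Cacna1i, a T-type calcium channel, and Kcna2, a voltage-gated potassium channel, rose by 1.41 and 1.35 (adjusted p = 0.000687 and 1.01e-05), and Kcnk12 rose by 1.34 (adjusted p = 0.000401, and 0.0587 without the block). The accessory subunit Kcne4 fell by 1.92 on the log2 scale and ranged over 0.957 to 3.12 CPM with DMSO and 0.133 to 0.989 CPM with DTG (adjusted p = 0.00228, and 0.109 without the block).

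Of 34 listed cytoskeleton genes, 6 were named. Of these, 4 passed as lower and none as higher, where 2.23% of all genes passed as lower. Without the block, 3 passed. The symbols of the 4 came from the study's list of genes changed by DTG, so they say nothing of the unnamed members. Arpc1b, a subunit of the Arp2/3 complex that nucleates branched actin, was at 205, 288, 232 and 148 CPM with DMSO and 85.4, 105, 107 and 62.6 CPM with DTG. The groups did not overlap, and the log2 fold change was -1.27 (SE 0.14, adjusted p = 3.2e-07). The kinesin gene Kif19 was at 106, 164, 102 and 101 CPM and 33.3, 49.5, 42.8 and 31.4 CPM, with 1 DMSO library, that of litter 2, above the other 3 (log2 fold change -1.59, SE 0.15, adjusted p = 1.63e-08). Ccsap, a microtubule-associated protein, and the scaffold Cnksr3 fell by 1.16 and 1.04 on the log2 scale (adjusted p = 0.000673 and 1.44e-05), the latter with an adjusted p = 0.0865 without the block.

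Several genes of inflammatory pathways were low in DMSO-treated OLs and higher with DTG. Casp4, an inflammatory caspase, was at 0.678, 0.445, 0.975 and 0.574 CPM with DMSO and 3.92, 1.29, 3.91 and 4.25 CPM with DTG. Gbp5, an interferon-induced GTPase, was at 0.493, 0.891, 1.25 and 0.638 CPM and 4.43, 2.66, 3.91 and 3.26 CPM, and Ifi27l2b, another interferon-induced gene, at 0.616, 0.0636, 0.488 and 0.447 CPM and 4.50, 1.14, 2.45 and 2.36 CPM. All 3 were higher with DTG without overlap, by log2 fold changes of 2.32, 2.13 and 2.68 (SEs 0.34, 0.33 and 0.38, adjusted p = 3.47e-05, 9.67e-05 and 1.76e-05). Aim2, a sensor of cytosolic DNA, was lower, at 3.08, 1.97, 3.83 and 0.638 CPM and 0.836, 0.532, 1.19 and 0.368 CPM (log2 fold change -1.67, adjusted p = 0.00251, and 0.145 without the block). Gbp2 did not pass. The genes that rose were also counted in OPCs without the drug, in a scaling of 16 libraries that adds the OPCs. There, DMSO-treated OPCs held Casp4 at 1.12 to 3.98 CPM and Gbp5 at 2.11 to 3.45 CPM. Ifi27l2b was at 2.36 to 6.27 CPM. These ranges overlapped those of DTG-treated OLs, and each litter was above its DMSO-treated OLs. Aim2 went the other way, at no more than 0.0958 CPM in DMSO-treated OPCs. Whether DTG induced these genes or kept a level of the precursors was not tested. Only 5 of 37 genes of this list could be named.

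Of 7 named histone genes, a group chosen after its values had been seen, 6 were lower and Hist1h2an did not pass (log2 fold change -0.68, adjusted p = 0.315). The symbols of the 6 came from the study's list of genes changed by DTG, so the count was set by the naming. Of all genes, 2.23% passed as lower. Hist2h2aa2 was at 9.92, 13.6, 13.7 and 10.5 CPM with DMSO and 2.89, 3.88, 4.84 and 2.73 CPM with DTG (log2 fold change -1.74, SE 0.22, adjusted p = 5.31e-06). The neighbouring Hist2h2aa3 and Hist2h3c2 on chromosome 2 had log2 fold changes of -1.93 and -2.12 (adjusted p = 0.000533 and 0.000135). On chromosome 17, Hist1h2ac, Hist1h3a and Hist1h2ah had -1.79, -1.62 and -1.83 (adjusted p = 0.00518, 0.00202 and 0.00803). The adjusted p-values of the last 2 were 0.0568 and 0.115 without the block, and that of Hist1h2ah was 0.0506 without litter 3. Copies of H2A genes are nearly identical, so the division of reads between Hist2h2aa2 and Hist2h2aa3 is uncertain, and only polyadenylated histone RNA would have been captured.

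Changes of cell cycle genes were small in size. Of 34 tested members of the list, 7 were lower, 1 was higher and 26 did not pass. Of all genes, 2.23% passed as lower and 2.86% as higher. The median log2 fold change of the list was -0.34, beside 0.01 over all genes. No member was called, and 1 passed without the block. Of the 7, 5 belong to the MCM helicase that opens DNA for replication. Mcm7 was at 107, 86.3, 84.2 and 83.7 CPM with DMSO and 65.9, 46.2, 53.1 and 47.7 CPM with DTG, without overlap (log2 fold change -0.77, SE 0.14, adjusted p = 0.000641). Mcm6, Mcm3 and Mcm5 had log2 fold changes of -0.76, -0.78 and -0.77 (adjusted p = 0.00314, 0.00766 and 0.00808), and these p-values became 0.122, 0.127 and 0.316 without the block and 0.0643, 0.098 and 0.0834 without litter 2. Ccnd2, a D-type cyclin, was the 1 member that was higher (0.64, adjusted p = 0.0099, against 0.163 without the block and 0.134 without litter 3). Of 8 tested targets of p53, 5 were higher and 3 did not pass, and 3 passed without the block. Besides Cdkn1a and Sesn2 they include the death receptor Fas, at 6.47, 7.38, 6.83 and 7.47 CPM and 10.2, 15.1, 12.3 and 17.4 CPM (log2 fold change 0.95, adjusted p = 0.00312), and Ccng1 (0.81, adjusted p = 0.00216, and 0.122 without the block).

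Other genes with the largest changes have no common role. Aoc1, a diamine oxidase, fell by 2.69 on the log2 scale (adjusted p = 2.04e-06). Atp10b, a lipid flippase, Tmprss5, a membrane serine protease, and Nppa, the atrial natriuretic peptide, had log2 fold changes of -2.39, -2.34 and -2.25 (adjusted p = 0.000107, 1.64e-06 and 0.000827). Nppa was at 5.30, 0.382, 1.18 and 1.28 CPM with DMSO, highest in litter 1, and its adjusted p was 0.182 without the block, while that of Aoc1 was 0.0549. Fut1, a fucosyltransferase, rose by 2.65 and ranged over 0.0616 to 0.51 CPM with DMSO and 0.795 to 2.89 CPM with DTG, and Slc4a10, a bicarbonate transporter, rose by 1.96, with 0.702 to 1.11 CPM and 2.78 to 5.21 CPM (adjusted p = 0.00022 and 0.000121). Pnlip, a lipase gene that rose by 6.21 in untreated differentiation, was far more counted, at 335, 511, 380.1 and 212 CPM with DMSO and 145, 172, 166 and 150.2 CPM with DTG (log2 fold change -1.12, adjusted p = 1.44e-05).

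The mitochondrial chromosome carries, among others, genes for subunits of the respiratory chain, read as long transcripts and cut into single RNAs. Not all of its genes encode such subunits, and those without a symbol are given by position. Its genes took 2.04% to 2.55% of gene counts in DMSO-treated OLs and 3.96% to 5.70% in DTG-treated OLs, with no overlap, and 2.36% to 2.90% in untreated OLs. Of 37 genes on the chromosome, 23 were tested, 13 were higher with DTG, 2 were lower and 8 did not pass. Among the 15 that are longer than 200 bases, 12 were higher and 3 did not pass, and without the block 9 were higher. The 3 that did not pass have no symbol, and whether they encode protein was not looked up. Mt-nd1, a subunit of complex I (chrMT:2740-3694), was at 2399, 2577, 2339 and 2107 CPM with DMSO and 6282, 7029, 8483 and 8336 CPM with DTG, the largest rise on the chromosome (1.67, SE 0.17, adjusted p = 8.5e-08). Other complex I subunits rose by 1.20 (Mt-nd4l), 1.03 (Mt-nd2), 1.01 (Mt-nd3) and 0.94 (Mt-nd5). Mt-co3 of cytochrome oxidase and Mt-atp8 of ATP synthase rose by 1.23 and 1.08. Adjusted p-values of these 6 lay between 2.3e-06 and 0.000298, and that of Mt-nd5 was 0.0556 without the block.

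Not all RNA of the chromosome moved together. The 2 long genes at chrMT:68-1025 and chrMT:1094-2664, just before Mt-nd1 on the same strand, had log2 fold changes of 0.08 (SE 0.14) and 0.06 (SE 0.14), with adjusted p = 0.798 and 0.871, and the gene at chrMT:7006-7689 had 0.46 (SE 0.17, adjusted p = 0.121). Poly(A) selection does not capture all mitochondrial RNA alike, so these levels are those of the polyadenylated fraction. On the minus strand, 2 short genes at chrMT:5081-5152 and chrMT:5185-5252 were lower, with log2 fold changes of -1.52 and -1.57 (adjusted p = 2.96e-05 and 0.000317, and 0.0948 and 0.136 without the block). Mt-atp8 and Mt-nd4l share bases with the genes that follow them, so their reads could be split. Nothing states that the counting used strand, so reads of overlapping genes on opposite strands cannot be told apart. When these genes were left out before scaling, 166 genes of the nuclear chromosomes were called, 96 of them higher.

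**Figure D4:**
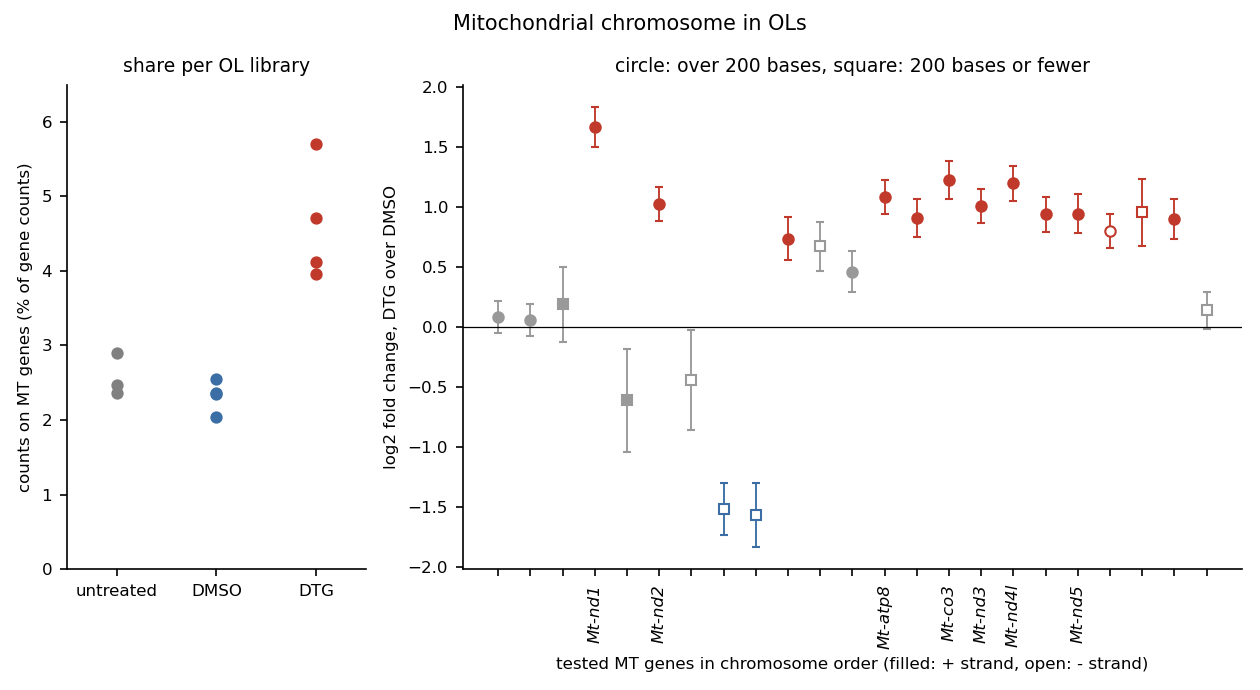
Left, the share of gene counts on mitochondrial genes (y axis, percent) in each untreated, DMSO-treated and DTG-treated OL library, where the DTG libraries lie from 3.96% to 5.70% and no other reaches 3%. Right, the log2 fold change with DTG (y axis, bar for the standard error) of the 23 tested mitochondrial genes in chromosome order (x axis), coloured where the adjusted p-value is under 0.05.

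Libraries of untreated OLs of litters 1, 2 and 4, which the DTG comparison did not use, were set beside the treated libraries of the same litters and of litter 3. In 1 scaling of 11 OL libraries, all 3 untreated libraries lay below all 4 DTG libraries for 70 of the 101 genes called higher (69.3%), against 6.16% of all 13140 genes. They lay above all 4 DTG libraries for 34 of the 72 called lower (47.2%), against 6.02%. The genes were called from these same 4 DTG libraries, so the shares are not independent evidence. In that scaling Trib3 ranged over 0.301 to 1.30 CPM in untreated OLs, 0.949 to 1.95 CPM with DMSO and 14.2 to 45.4 CPM with DTG. Atf4 ranged over 120.3 to 216 CPM, 124 to 162 CPM and 242 to 400.1 CPM in the same order, and Txnip over 21.3 to 42.3 CPM, 20.7 to 54.1 CPM and 2.19 to 9.56 CPM. For each of the 3 genes the untreated range overlapped that of DMSO and not that of DTG. Mbp was at 3476 to 8829.9 CPM in untreated OLs and 1542 to 3953 CPM with DTG, with a slight overlap.

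OPCs exposed to the same dose for the first 24 hours were set beside the OLs in a fit of 16 libraries. In OPCs, 0 of 13734 genes passed in that edgeR fit (0.0%), and 1279 fell below 0.05 before adjustment. The counts for OLs given above came from a separate fit of the 8 OL libraries. OPCs were not fitted alone, so the numbers of genes passing in OLs and in OPCs are not directly comparable. The difference between the responses of OLs and OPCs passed for 5 genes (0.0364%), 3 above 0 (0.0218%) and 2 below (0.0146%), with 1025 at an unadjusted p-value under 0.05. Gdf15 was at 0.745, 5.001, 3.78 and 3.95 CPM in DMSO-treated OPCs and 0.75, 4.22, 4.47 and 4.85 CPM in DTG-treated OPCs, overlapping and with a log2 fold change of 0.09, so its response in OLs exceeded that in OPCs by 3.08 (SE 0.31, adjusted p = 0.00228). Txnip was lower with DTG in each litter of OPCs, at 20.6, 25.7, 21.2 and 36.1 CPM and 12.3, 14.4, 12.1 and 26.6 CPM, and its log2 fold change of -0.70 (adjusted p = 0.447) in OPCs was smaller in size than in OLs, with a difference of -2.31 (SE 0.25, adjusted p = 0.00257). Arpc1b, Ifi27l2b and Eif4ebp1 had log2 fold changes of -0.08, -0.34 and -0.02 in OPCs and differences of -1.17, 3.04 and 2.14 (adjusted p = 0.0227, 0.0285 and 0.0382). Without litter 4 no difference passed (1324 at an unadjusted p-value under 0.05), and the adjusted p of Gdf15, Txnip and Arpc1b was then 0.110. Gdf15 and Txnip passed on leaving out any other litter, Arpc1b missed also without litters 1 and 3 (0.146 and 0.101), Eif4ebp1 without litters 2 and 3 (0.0552 and 0.0720) and Ifi27l2b without each litter. Without the block, 0 differences passed (368 at an unadjusted p-value under 0.05), and DESeq2's Wald test passed 78, the 5 among them.

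By the edgeR test, a difference between the stages was not shown for the other stress genes. Which of them are among the 78 genes that passed by DESeq2 is not given here. Trib3 had a log2 fold change of 1.28 (SE 0.54, adjusted p = 0.447) in OPCs, and its difference of 2.74 (SE 0.74) had an adjusted p = 0.299. Atf4 and Asns differed by 0.89 and 1.70 (adjusted p = 0.093 for both), and Mbp and Gjc3 by -1.05 and -1.88 (adjusted p = 0.093 for both). Mt-nd1 had a log2 fold change of 0.86 (SE 0.20, adjusted p = 0.447) in OPCs, and its difference of 0.82 had an adjusted p = 0.493. The share of counts on mitochondrial genes was higher with DTG in each litter of OPCs, although the groups overlapped. It was 2.56%, 3.94%, 4.52% and 2.01% with DMSO and 3.12%, 5.72%, 4.83% and 3.53% with DTG. Named mitochondrial genes had log2 fold changes in OPCs from 0.37 (Mt-nd3) to 0.99 (Mt-nd2), none passing. The response of Mt-nd2 differed by 0.05 between the stages (adjusted p = 0.98). Stage, length of exposure and medium differ together between OPCs and OLs and cannot be told apart.

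**Figure D5:**
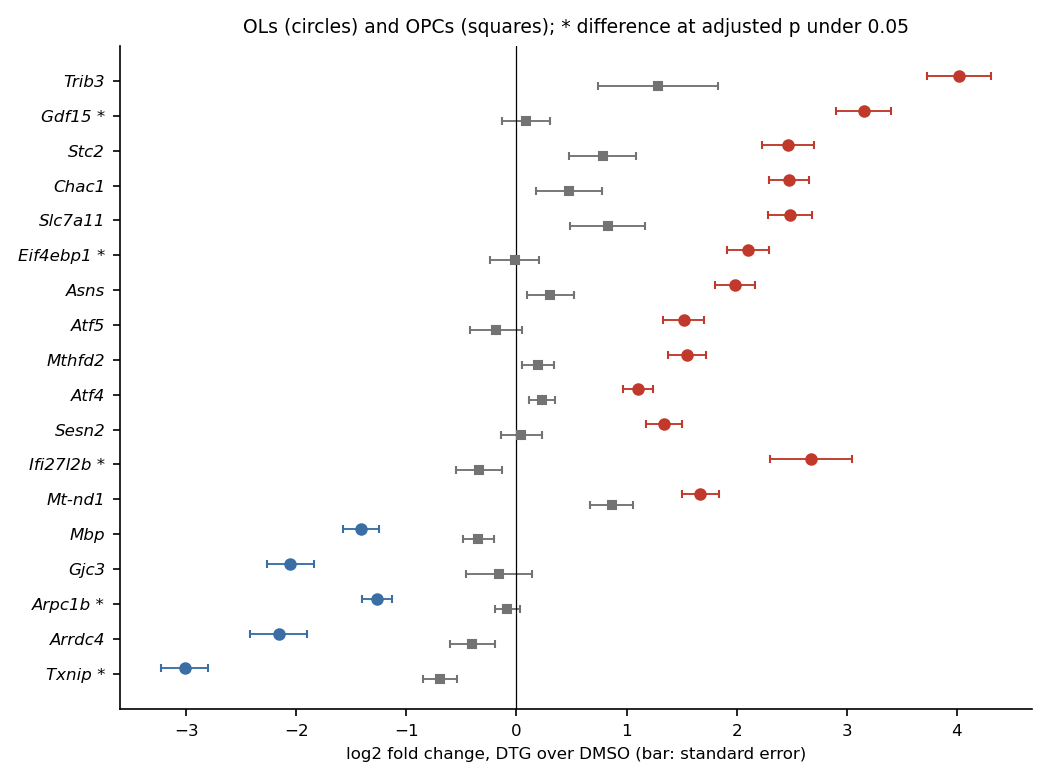
Log2 fold change with DTG (x axis, bar for the standard error) of 18 named genes (y axis) in OLs (circles, red for higher and blue for lower) and OPCs (grey squares). An asterisk marks the 5 genes whose difference between the stages has an adjusted p-value under 0.05, and Gdf15 stands at 3.15 in OLs and 0.09 in OPCs. The OL values are from the fit of the 8 OL libraries, and the OPC values and asterisks from the fit of 16 libraries.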

How the data were processed

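Poly(A)-enriched RNA with added ERCC transcripts was sequenced in pairs of reads. The authors deposited 1 table of raw gene counts per library, made per the labels and the study's methods with STAR 2.5.2b and featureCounts (Subread 1.5.2) from uniquely mapped reads in exons, with build Rnor_6.0 in the submitters' processing notes. Strand use in counting is not given in the sources used here. The 92 ERCC entries were dropped, filterByExpr applied, and TMM scaling and the quasi-likelihood test of edgeR 4.0.16 (limma 3.58.1, R 4.3.3) run with the litter as a block. The study's methods state DESeq2 without it, which was kept as an alternative (DESeq2 1.42.0). Passing meant a Benjamini-Hochberg adjusted p-value under 0.05 over all genes tested, and a call also an absolute log2 fold change over 1. The scripts were tested on simulated data.

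The study's methods take separate litters as replicates, and the culture date and letter in the library names pair the samples. Deviations from the group means of same-numbered libraries correlated at 0.43, 0.40, 0.40 and 0.00 across genes. The DTG library of litter 4 correlated more with the DMSO library of litter 1 (0.31) than with its own partner, so its pairing rests on the names. Litters 2 and 3 share a culture date. Untreated replicate 3 of each stage lists another gene set, so 2 files were not used and 3 pairs remained. Symbols came from the gene lists in the study's supplementary files, which were used for names only. The members and lists were chosen with earlier results of these data known. Named were genes of those lists, genes the study's text names, and the 15 largest rises and 15 largest falls among called genes that averaged over 0 in log2 CPM and moved 1 way in all 4 litters, plus a few said to be chosen after their values were seen. Where a gene had few counts, counting error limits the values. Alternatives were no block, DESeq2 with and without the block, DESeq2's size factors, TMM without mitochondrial genes, ERCC scaling, no filter, a filter at 1 CPM, and leaving out each litter.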

Additional observations from a re-analysis of the deposited data

Results flagged for a closer look

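In 10 of the 190 groups of 4 values examined, 1 library stood apart from the other 3 by Dixon's criterion, about the number that chance gives at 1 group in 20. Among DTG-treated OLs, these were Slc7a3 in litter 1 (104 CPM, the others 25.2 to 26.8), Slc7a11 in litter 2 (19.8 CPM, the others 30.7 to 32.4), Casp4 in litter 2 (1.29 CPM, the others 3.91 to 4.25), Kcna2 in litter 4 (44.8 CPM, the others 23.6 to 27.0), Plch2 in litter 1 (1.86 CPM, the others 2.31 to 2.39), Hist1h2ac in litter 4 (0.735 CPM, the others 0.321 to 0.380) and Hsp90b1 in litter 3 (86.8 CPM, the others 109 to 111). Among DMSO-treated OLs, they were Kif19 in litter 2 (164 CPM, the others 101 to 106), Mcm7 in litter 1 (107 CPM, the others 83.7 to 86.3) and Lgals3 in litter 3 (1.67 CPM, the others 0.763 to 0.863).

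The response to DTG differed between OLs and OPCs by the interaction test for 5 genes. The difference of OLs minus OPCs on the log2 scale was 3.08 for Gdf15, 3.04 for Ifi27l2b, 2.14 for Eif4ebp1, -1.17 for Arpc1b and -2.31 for Txnip. Ifi27l2b was more counted in OPCs than in OLs with DMSO, at 2.36, 5.54, 3.64 and 6.27 CPM in DMSO-treated OPCs.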

How the results depend on the processing

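Against 173 genes called in OLs with the litter as a block, 74 were called with no replicate block and 71 with libraries scaled to ERCC counts, and leaving out 1 litter gave 149 to 233. The other settings lay between 128 (DESeq2 without the block) and 178 (DESeq2's size factors). The 5 differences between OLs and OPCs became 0 with no replicate block, 78 by DESeq2 and 8 with ERCC scaling, and 0 to 5 on leaving out 1 litter. Untreated differentiation gave 3080 genes, 3016 with no replicate block and 2873 to 3191 on leaving out 1 litter.

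Of 93 genes of the text that passed with the block, 59 passed without the pairing and 34 did not. ERCC scaling ended 46 of them, and 1 value changed direction, Pdgfra in OLs, at 0.19 against -0.27. The cause was not tested. DMSO-treated OLs held 2.19% to 7.19% ERCC counts, so that scale rests on how evenly these transcripts were added. They went into normalised total RNA, so that scale does not measure RNA per cell. The 4 litters, names for 76.9% of called genes and low counts limit the values.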

Other observations

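The 6 genes given here, of the cell surface or secreted, were chosen after their values were seen because they were higher with DTG, while other such genes, among them S1pr5 and Tmprss5, were lower. Mertk, a receptor tyrosine kinase that takes part in the uptake of dying cells and debris, was at 4.81, 6.74, 8.85 and 7.02 CPM with DMSO and 9.90, 13.2, 20.01 and 20.7 CPM with DTG, without overlap (log2 fold change 1.21, standard error 0.20, adjusted p = 0.0002 by edgeR's quasi-likelihood test). Ddr2, a collagen receptor, was at 5.36, 6.55, 5.64 and 5.68 CPM and 22.5, 12.5, 13.1 and 15.8 CPM, also without overlap (1.44, standard error 0.21, adjusted p = 4.15e-05). Both passed also without the block, at adjusted p = 0.0469 and 0.00746.

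The WNT receptor Fzd7 was at 7.83, 6.04, 5.99 and 7.78 CPM with DMSO and 14.9, 9.43, 15.8 and 18.9 CPM with DTG. Sfrp4, a secreted modulator of WNT, was at 0.493, 1.08, 1.18 and 1.02 CPM and 3.47, 2.13, 2.98 and 3.89 CPM. Neither overlapped between the DMSO and DTG groups, and their log2 fold changes were 1.08 and 1.73 (adjusted p = 0.00091 and 0.00111). Both were lower in untreated OLs than in untreated OPCs, by log2 differences of -1.56 and -1.40 (adjusted p = 0.00277 and 0.0219 by edgeR). In the scaling of 11 OL libraries, Fzd7 ranged over 5.26 to 12.2 CPM in untreated OLs and 9.72 to 19.6 CPM with DTG. A part of WNT signalling in the response was not tested. Piezo1, a mechanically gated channel, and Lgals3, the lectin galectin 3, had log2 fold changes of 1.14 and 1.84 (adjusted p = 0.00292 and 0.000747). Their groups overlapped, although each litter was higher with DTG, and without the block the adjusted p-values were 0.153 and 0.133.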
